A study of Mus musculus with 9 samples.

Results

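The transcripts described here belong to calcineurin and NFAT calcium signalling and were taken as all rows of the 9 deposited libraries whose gene symbol was on a list of 10 genes, so that 10 of 23282 gene rows were used, 1 row for each gene. The list held the calcineurin subunit genes Ppp3ca, Ppp3cb, Ppp3cc and Ppp3r1, the transcription factor genes Nfatc2 and Nfatc3, the calcineurin inhibitor Rcan1, the inositol trisphosphate receptor genes Itpr1 and Itpr2, and the tyrosine kinase gene Lck. RNA came from RAW264.7 cells, a macrophage line of BALB/c mice in which RANKL, the cytokine behind osteoclast formation, induces multinucleated osteoclast-like cells, and the labels put the cells at passage 30. Each group had 3 libraries after 4 days of treatment. The negative control received RANKL alone at 50 ng/mL, the surface protein group received RANKL at 50 ng/mL with surface proteins of Propionibacterium freudenreichii MJ2 at 10 μg/mL, and the remaining group received heat-killed MJ2 at 10000000 cells/mL. Whether the cells given heat-killed MJ2 also received RANKL is not stated for these libraries one by one. There was no group without any treatment, and all libraries came from this single cell line, and the labels do not say that libraries of a group came from separate cultures, so that the p-values measure the spread between libraries, which may be technical.

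In the calcium pathway, phospholipase C gamma makes inositol trisphosphate, which opens the inositol trisphosphate receptors of the endoplasmic reticulum. The calcium that leaves the store binds calmodulin and the regulatory subunit of calcineurin, and the phosphatase then removes phosphates from NFAT proteins, which move to the nucleus. In osteoclast precursors this route amplifies NFATc1, the transcription factor that drives genes such as Acp5 and Dcstamp, while RCAN1 binds calcineurin and inhibits it and is itself a known NFAT target.

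The values are log2(adjusted reads + 1), as deposited, and adjusted reads stands for 2 raised to the value minus 1. The libraries were made by 3′ mRNA sequencing, in which a transcript gives reads at its 3′ end whatever its length. Totals ran from 5930926 to 6503682 adjusted reads, with a median of 6195319. In 6 libraries the lowest value above 0 lay between 0.848 and 0.972 adjusted reads, close to 1 read. The other 3 libraries, replicate 2 of RANKL alone, replicate 1 of heat-killed MJ2 and replicate 3 of surface proteins, listed between 2454 and 3195 rows at values up to 0.127 adjusted reads, and each had 7779 rows at exactly 0. Of 8 macrophage markers, 7 reached 10 adjusted reads in all 9 libraries and Mertk was listed at 0 in all of them. The summed adjusted reads of the 8 ranged from 18153 to 19603 with RANKL alone, from 24114 to 25242 with heat-killed MJ2 and from 19702 to 21222 with surface proteins. This sum hides opposite changes of single markers, since with surface proteins against RANKL alone Adgre1, Itgam, Lyz2 and Cd14 were 14.0-fold, 8.07-fold, 5.57-fold and 5.16-fold higher and Csf1r was 2.78-fold lower, each with an adjusted p below 0.05 in limma, and with heat-killed MJ2 Itgam, Lyz2 and Cd14 were higher at the same threshold. The summed adjusted reads of 9 osteoclast markers ranged from 17104 to 28423, from 12114 to 14066 and from 4966 to 7354 in the same order. Since these are bulk samples, fewer osteoclast-like cells and less RNA of a gene per cell cannot be told apart, and the part of this shift in the differences given below was not tested.

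The bases before the start sites of Rcan1 and Nfatc2, whose transcripts were lower with surface proteins, and of Itpr2, whose transcripts were higher, are shown to let a reader see which of them hold the core letters bound by NFAT proteins. RefSeq windows of 250 bases before a start site on GRCm38.p6 were found for 7 of the 10 genes, 11 windows in all. They are written 5′ to 3′ on the strand of the gene, and capitals mark GGAAA, or TTTCC where the match is on the other strand. GGAAA contains the GGAA core of ETS factors, and the same letters occur in sites of NF-κB.
Rcan1 distal start, chr16:92466170-92466419, minus strand: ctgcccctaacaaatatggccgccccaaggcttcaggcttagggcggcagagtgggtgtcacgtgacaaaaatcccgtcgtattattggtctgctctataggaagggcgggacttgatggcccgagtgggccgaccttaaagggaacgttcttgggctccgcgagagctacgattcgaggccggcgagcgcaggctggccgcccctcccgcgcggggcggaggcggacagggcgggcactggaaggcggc
Rcan1 internal start, chr16:92400079-92400328, minus strand: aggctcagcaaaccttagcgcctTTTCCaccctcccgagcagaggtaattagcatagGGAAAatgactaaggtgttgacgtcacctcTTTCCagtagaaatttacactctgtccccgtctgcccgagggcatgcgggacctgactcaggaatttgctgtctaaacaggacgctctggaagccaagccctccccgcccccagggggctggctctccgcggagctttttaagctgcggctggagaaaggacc
Nfatc2 distal start, chr2:168601658-168601907, minus strand: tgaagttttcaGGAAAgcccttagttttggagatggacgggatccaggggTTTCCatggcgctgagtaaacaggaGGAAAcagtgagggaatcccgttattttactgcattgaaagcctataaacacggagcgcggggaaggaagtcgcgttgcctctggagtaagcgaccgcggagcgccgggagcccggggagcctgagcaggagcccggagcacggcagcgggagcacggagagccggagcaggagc
Nfatc2 internal start, chr2:168590366-168590615, minus strand: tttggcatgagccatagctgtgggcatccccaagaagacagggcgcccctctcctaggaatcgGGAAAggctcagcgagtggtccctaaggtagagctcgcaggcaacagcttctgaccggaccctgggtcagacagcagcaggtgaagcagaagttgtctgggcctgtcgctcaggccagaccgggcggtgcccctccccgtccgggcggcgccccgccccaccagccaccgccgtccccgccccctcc
Itpr2 start, chr6:146502224-146502473, minus strand: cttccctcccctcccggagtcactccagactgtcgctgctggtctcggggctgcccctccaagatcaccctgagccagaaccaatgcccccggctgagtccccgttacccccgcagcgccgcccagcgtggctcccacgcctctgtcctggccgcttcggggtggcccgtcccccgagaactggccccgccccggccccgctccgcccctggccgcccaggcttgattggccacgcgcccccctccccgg

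The internal Rcan1 window held 3 matches, which began 227, 193 and 163 bases before the start site, and the distal window held 0. In the distal Nfatc2 window 3 matches began 239, 200 and 175 bases before the start, and the internal window held 1 match at 187 bases. No match was found for Itpr2. Among the windows not shown, that of Ppp3cb, which was not called, also held 3, and 1 of the Nfatc3 windows and 1 of the Lck windows held 1 each, while Ppp3r1 held 0. Of all 32851 windows of this length, 55.6% held at least 1 match and 6.39% held at least 3, and 6 of the 11 windows of the listed genes held at least 1 and 3 held 3. Such a match is a description of the letters and no evidence of binding. The 5 protein-coding Rcan1 transcripts of the GENCODE M21 annotation all end within 1000 bases of the same 3′ end, so that 3′ reads cannot tell transcripts of the internal start from those of the distal start. For Itpr2 only 1 of 4 such transcripts ends there, for Nfatc2 2 of 5, for Itpr1 2 of 6, for Nfatc3 1 of 3 and for Ppp3ca 1 of 2. Which of these ends gave the reads is not known here. Overlaps with other genes, given below, were looked for only in the last 1000 bases of each gene.

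The surface protein-treated cells were compared with the negative control to ask which calcineurin and NFAT genes differ when differentiation is inhibited. Ppp3cc and Itpr2 rose by about the fold limit of 2 or slightly more, Rcan1 and Nfatc2 fell, and for the calcineurin catalytic subunits Ppp3ca and Ppp3cb the 95% confidence intervals spanned 0 and lay within the fold limit. The regulatory subunit Ppp3r1 was not called, although its libraries with surface proteins lay above the 6 others. A gene was called where limma gave an adjusted p below 0.05 and the groups differed by 2-fold or more. Genes entered a comparison with 10 or more adjusted reads in 3 or more of its 6 libraries, and all 10 genes entered each one. Of the 10 genes, 4 were called, 2 higher and 2 lower, while 17.5% of the 10874 genes tested were called (10.2% higher and 7.32% lower). The 2 groups did not overlap in 6 of the 10 genes, and 48.4% of all genes tested showed this. An unadjusted p under 0.05 was found for 6 of the 10 genes and for 42.3% of all genes. The median log2 fold change of the 10 genes was 0.03, beside -0.008 over all genes tested.

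Against RANKL alone, 0 of the 10 genes were called with heat-killed MJ2, and 3 of them, Rcan1, Itpr1 and Itpr2, had an unadjusted p under 0.05 in limma, as did 22.6% of all genes tested. Of all 10814 genes tested in this comparison 4.26% were called (3.37% higher and 0.897% lower), but the share was 0.766% without replicate 1 of heat-killed MJ2. Groups did not overlap in 2 of the 10 genes and in 30.2% of all genes. The median log2 fold change of the 10 genes was -0.10, and that of all genes was -0.004. Surface proteins were then compared with heat-killed MJ2 directly, since the other 2 comparisons share their control libraries. In this comparison 2 of the 10 genes, Ppp3cc and Lck, were called, both higher with surface proteins, against 10.1% of the 10916 genes tested (5.08% higher and 4.97% lower) and 3.37% of genes without replicate 1 of heat-killed MJ2. In 7 of the 10 genes the groups did not overlap, against 42.3% of all genes, and 6 of the 10 had an unadjusted p under 0.05, against 35.3% of all genes. The median log2 fold change was 0.25 beside 0.03 over all genes.

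Without the 3 libraries that list values under 1 read, which leaves 2 libraries a group, 2 of the 10 genes, Itpr2 and Lck, and 11.7% of all genes were called between surface proteins and RANKL alone. Lck then had a log2 fold change of 2.04 (adjusted p = 0.0156 from limma). Itpr2 had a log2 fold change of 1.23 (adjusted p = 0.0318 from limma). Those of Rcan1, Nfatc2 and Ppp3cc were -1.88, -1.02 and 0.80 and were not called, with adjusted p = 0.0584, 0.137 and 0.101 from limma.

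**Figure D1:**
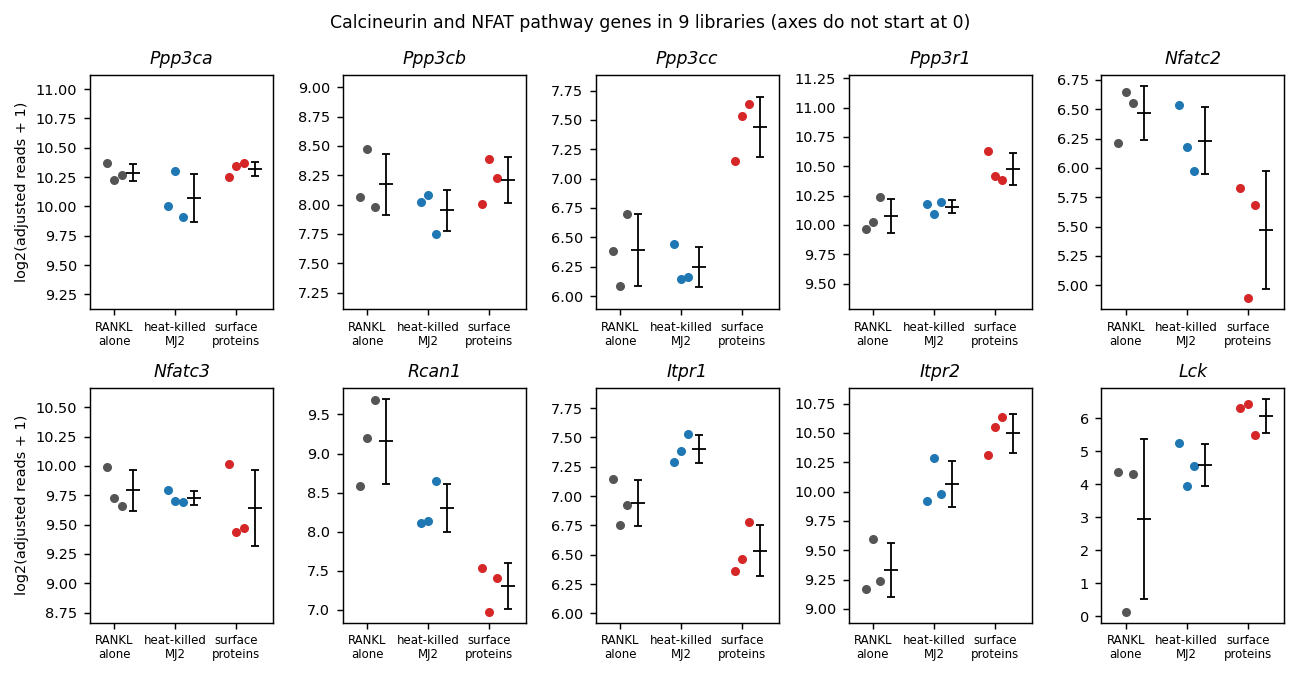
Deposited log2 values, log2(adjusted reads + 1), of the 10 genes in each library (points, 3 a group) with the mean and SD beside them (black). Rcan1 and Nfatc2 are lowest and Ppp3cc, Itpr2 and Lck highest with surface proteins, and 1 library of RANKL alone lies near 0 for Lck (log2 value 0.13).

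**Figure D2:**
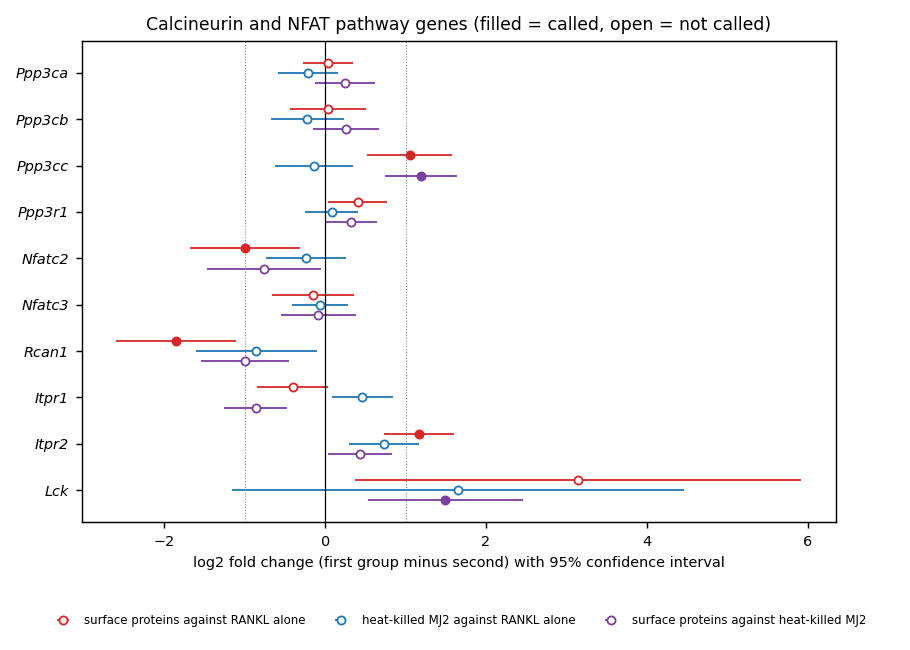
Log2 fold changes of the 10 genes in the 3 comparisons with their 95% confidence intervals from limma, filled where called and open where not, with dotted lines at the fold limit of 2. The intervals of Ppp3ca, Ppp3cb and Nfatc3 span 0 in all 3 comparisons, and the interval of Lck against RANKL alone is the widest drawn.

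Ppp3ca, Ppp3cb and Ppp3cc encode the alternative catalytic subunits of calcineurin, and Ppp3r1 encodes its calcium-binding regulatory subunit. Ppp3ca (ENSMUSG00000028161.17, chromosome 3, 136670124 to 136937727, plus strand, GRCm38) had 1321, 1196 and 1232 adjusted reads in the 3 libraries of RANKL alone, 1026, 1261 and 960 with heat-killed MJ2 and 1215, 1298 and 1320 with surface proteins. All 3 groups overlapped. The log2 fold change of Ppp3ca with surface proteins against RANKL alone was 0.03 (95% confidence interval -0.28 to 0.35, adjusted p = 0.872 from limma), so a change of 2-fold lies outside the interval. The same holds for Ppp3cb, the catalytic subunit of broad expression, with a log2 fold change of 0.04 (95% confidence interval -0.43 to 0.50, adjusted p = 0.907 from limma) around a control mean of 8.17 ± 0.26 (SD, n = 3) on the log2 scale.

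Ppp3cc, known for its high expression in testis (ENSMUSG00000022092.11, chromosome 14, 70217865 to 70289471, minus strand), was the catalytic subunit gene that changed. It had 82.5, 66.9 and 102.8 adjusted reads with RANKL alone, 85.9, 69.6 and 70.6 with heat-killed MJ2 and 140.9, 184.3 and 197.4 with surface proteins. Every library with surface proteins lay above all 6 others, and the other groups overlapped. Ppp3cc was 2.07-fold higher with surface proteins than with RANKL alone (log2 fold change 1.05, 95% confidence interval 0.52 to 1.58, adjusted p = 0.0167 from limma) and 2.28-fold higher than with heat-killed MJ2 (log2 fold change 1.19, 95% confidence interval 0.75 to 1.63, adjusted p = 0.0138). With heat-killed MJ2 its log2 fold change against RANKL alone was -0.14 (95% confidence interval -0.62 to 0.34). The call against RANKL alone sits at the fold limit: it was lost without replicate 2 of RANKL alone (log2 fold change 0.90), without replicate 2 or replicate 3 of surface proteins (1.00 and 0.95, adjusted p = 0.0574 and 0.053 from limma) and with equal library totals (0.997). The call against heat-killed MJ2 was lost without replicate 3 of that group (log2 fold change 1.15, adjusted p = 0.0521 from limma). An annotated gene on the opposite strand, Gm49417, overlaps the last 1000 bases of Ppp3cc, and it is not given whether reads were counted by strand.

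The make-up of the catalytic subunit transcripts was compared as well. Ppp3cc made up 4.94%, 4.14% and 6.48% of the adjusted reads of the 3 catalytic genes with RANKL alone, 6.27%, 4.35% and 5.67% with heat-killed MJ2 and 8.75%, 10.14% and 10.87% with surface proteins. Its mean share was 9.92% ± 1.08 (SD, n = 3) with surface proteins and 5.19% ± 1.19 (SD, n = 3) with RANKL alone, and no library overlapped. These shares restate the values of the 3 genes and were not tested. Ppp3ca remained the most abundant in every library, with 71.4% to 79.1% of these reads. Ppp3r1 (chromosome 11, 17159263 to 17200375, plus strand) had 996, 1042 and 1207 adjusted reads with RANKL alone, 1160, 1090 and 1169 with heat-killed MJ2 and 1586, 1367 and 1333 with surface proteins. These last 3 libraries were above the 6 others, but the difference from RANKL alone did not pass (log2 fold change 0.40, 95% confidence interval 0.03 to 0.77, adjusted p = 0.0944 from limma). The annotation places Wdr92 on the same strand over the last 1000 bases of Ppp3r1, and the division of reads between them is not given.

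**Figure D3:**
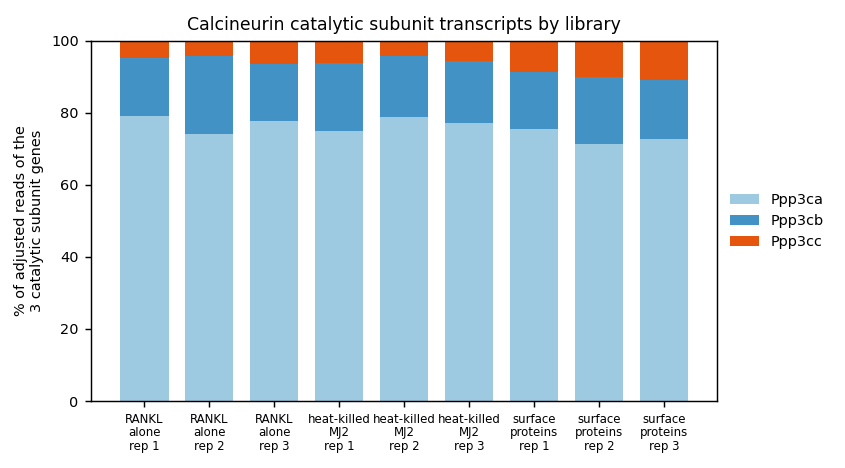
Shares of Ppp3ca, Ppp3cb and Ppp3cc in the summed adjusted reads of the 3 calcineurin catalytic subunit genes, in percent, for each of the 9 libraries. Ppp3cc takes between 8.75% and 10.87% in the libraries with surface proteins and between 4.14% and 6.48% in the other 6.

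NFATc2 and NFATc3 are calcium-regulated NFAT factors that are present before NFATc1 is induced. Nfatc2 (ENSMUSG00000027544.16, chromosome 2, 168476410 to 168601657, minus strand) had 73.1, 99.1 and 93.0 adjusted reads with RANKL alone, 92.1, 71.6 and 61.8 with heat-killed MJ2 and 55.8, 28.7 and 50.5 with surface proteins. Each library with surface proteins lay below all 6 others. Nfatc2 fell by a log2 value of 1.00 between RANKL alone and surface proteins, from 6.47 ± 0.23 to 5.47 ± 0.50 (SD, n = 3 each; 95% confidence interval -1.68 to -0.32, adjusted p = 0.0416 from limma). The call was lost in 9 of the 18 alternatives. Leaving out a library at a time gave log2 fold changes between -1.18 and -0.71, and only without replicate 1 of surface proteins was Nfatc2 still called. Against heat-killed MJ2 its log2 fold change of -0.76 was not called (95% confidence interval -1.47 to -0.06, adjusted p = 0.119 from limma).

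Nfatc3 (ENSMUSG00000031902.10, chromosome 8, 106058840 to 106130537, plus strand) was the more abundant of these factors by adjusted reads at the 3′ end, with 1015, 845 and 807 adjusted reads with RANKL alone, 889, 829 and 827 with heat-killed MJ2 and 1035, 690 and 708 with surface proteins. The 3 groups overlapped throughout. Its log2 fold change was -0.15 (95% confidence interval -0.66 to 0.36, adjusted p = 0.622 from limma) for surface proteins and -0.06 (95% confidence interval -0.41 to 0.29) for heat-killed MJ2, each against RANKL alone. Esrp2 lies on the opposite strand over the last 1000 bases of Nfatc3.

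NFATc1 is the member of the family that RANKL induces, and its gene was not among the 10. Nfatc1 had 3810, 3885 and 4698 adjusted reads with RANKL alone, 1972, 1754 and 1964 with heat-killed MJ2 and 739, 297 and 511 with surface proteins. The 3 groups were fully separate, in that order. Nfatc1 was 2.17-fold lower with heat-killed MJ2 than with RANKL alone (log2 fold change -1.12, 95% confidence interval -1.47 to -0.77, adjusted p = 0.013 from limma) and 8.52-fold lower with surface proteins (log2 fold change -3.09, adjusted p = 0.0021). It was 3.92-fold lower with surface proteins than with heat-killed MJ2 (log2 fold change -1.97, adjusted p = 0.0161 from limma). Nfat5, the osmotic stress factor that calcineurin does not regulate, had a log2 fold change of -0.67 between surface proteins and RANKL alone (adjusted p = 0.0332 from limma) and was not called, its fold being under 2. Nfatc4 was below the filter in every comparison.

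Rcan1, which encodes the regulator of calcineurin 1 (ENSMUSG00000022951.16, chromosome 16, 92391953 to 92470867, minus strand), had the largest decrease among the 10 genes. Its adjusted reads were 384, 588 and 819 with RANKL alone, 275, 281 and 401 with heat-killed MJ2 and 184, 125 and 168 with surface proteins. The libraries with surface proteins were below all others, while the highest library with heat-killed MJ2 overlapped the lowest with RANKL alone. Rcan1 was 3.62-fold lower with surface proteins than with RANKL alone, falling from a log2 value of 9.16 ± 0.55 to 7.30 ± 0.29 (SD, n = 3 each; log2 fold change -1.85, 95% confidence interval -2.60 to -1.10, adjusted p = 0.00811 from limma). It was called without any 1 of the 6 libraries, with log2 fold changes from -2.14 to -1.59. The log2 fold change of Rcan1 between surface proteins and heat-killed MJ2 was -0.998 (95% confidence interval -1.55 to -0.45, adjusted p = 0.0324 from limma), so that it passed on the adjusted p and missed the fold limit by a small margin. Quantile normalization gave -1.02 and equal totals gave -1.08, and Rcan1 was called under both. It was called in 6 of the 18 alternatives in all, and with each library left out the adjusted p ran from 0.0447 to 0.0882 in limma, and the pass on the adjusted p was lost without replicate 1 or 3 of heat-killed MJ2 and without replicate 2 or 3 of surface proteins. With heat-killed MJ2 against RANKL alone the log2 fold change was -0.86 (95% confidence interval -1.61 to -0.10, adjusted p = 0.174 from limma) and not called. The means of Rcan1 had the same order as those of Nfatc1 and as the summed osteoclast markers, highest with RANKL alone and lowest with surface proteins.

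The inositol trisphosphate receptors, the calcium release channels of the endoplasmic reticulum, differed between their genes. Itpr2 (ENSMUSG00000030287.15, chromosome 6, 146108299 to 146502223, minus strand) had 575, 771 and 601 adjusted reads with RANKL alone, 970, 1248 and 1010 with heat-killed MJ2 and 1270, 1496 and 1586 with surface proteins. Every library of a treated group lay above every library of RANKL alone, and every library with surface proteins lay above those with heat-killed MJ2. Itpr2 was 2.24-fold higher with surface proteins than with RANKL alone, at a log2 value of 10.50 ± 0.17 against 9.33 ± 0.23 (SD, n = 3 each; log2 fold change 1.17, 95% confidence interval 0.74 to 1.60, adjusted p = 0.00604 from limma). This call held in all 18 alternatives, with log2 fold changes between 1.08 and 1.30. The 1.66-fold difference with heat-killed MJ2 was not called (log2 fold change 0.73, 95% confidence interval 0.30 to 1.17, adjusted p = 0.0736 from limma), nor was the difference between the treatments (log2 fold change 0.43, 95% confidence interval 0.03 to 0.84, adjusted p = 0.12).

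Itpr1 (ENSMUSG00000030102.11, chromosome 6, 108213096 to 108551109, plus strand) had 141, 107 and 121 adjusted reads with RANKL alone, 156, 166 and 183 with heat-killed MJ2 and 81.2, 87.3 and 109 with surface proteins. The libraries with heat-killed MJ2 were the highest, and those with surface proteins overlapped the lowest of RANKL alone. Neither treatment was called against RANKL alone, with log2 fold changes of 0.46 (95% confidence interval 0.08 to 0.84) for heat-killed MJ2 and -0.41 (95% confidence interval -0.85 to 0.03) for surface proteins. Set against each other, the treatments differed by a log2 fold change of -0.87 (95% confidence interval -1.26 to -0.47, adjusted p = 0.0212 from limma), 1.82-fold lower with surface proteins, which passed on the adjusted p but not on the fold. With each library left out the adjusted p of Itpr1 in this comparison ran from 0.0356 to 0.0735 in limma, so that the pass did not hold throughout. The adjusted reads of Itpr2 exceeded those of Itpr1 in every library.

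Lck encodes a Src-family tyrosine kinase best known from T cell receptor signalling, where it acts upstream of phospholipase C gamma and calcineurin. It was chosen by the study on these libraries, so its direction against RANKL alone is not independent evidence. Lck (ENSMUSG00000000409.14, chromosome 4, 129548344 to 129573641, minus strand) had 19.6, 0.0943 and 18.8 adjusted reads with RANKL alone, 36.8, 14.5 and 22.6 with heat-killed MJ2 and 78.3, 85.6 and 43.9 with surface proteins. The libraries with surface proteins were above all 6 others, and the value under 1 read in RANKL alone came from replicate 2, which is among the 3 libraries that list such values. With surface proteins against RANKL alone the log2 fold change was 3.14 (95% confidence interval 0.37 to 5.92, adjusted p = 0.0863 from limma) and not called. Without that replicate it was 1.74 and called (adjusted p = 0.0193 from limma). Lck was also called in the fit over all 9 libraries (adjusted p = 0.0457) and in the robust limma fit with a mean-variance trend (adjusted p = 0.0374), and over all alternatives its adjusted p ran from 0.0156 to 0.195. With heat-killed MJ2 against RANKL alone its log2 fold change was 1.65 (95% confidence interval -1.16 to 4.46, adjusted p = 0.454 from limma), and 0.25 without replicate 2 of RANKL alone. In the groups that hold no such value Lck was 2.82-fold higher with surface proteins than with heat-killed MJ2 (log2 fold change 1.49, 95% confidence interval 0.53 to 2.46, adjusted p = 0.049 from limma). This call was lost in 12 of the 18 alternatives, including each fit that left out a library, where the adjusted p ran from 0.0527 to 0.133. Of 12 T cell markers, 10 were in the files, 7 had at most 3 adjusted reads in every library, and Cd3e, Cd8a, Cd2 and Zap70 were listed at 0 throughout. The summed T cell markers ranged from 14.2 to 48.5 adjusted reads with RANKL alone, from 3.83 to 21.6 with heat-killed MJ2 and from 9.54 to 44.1 with surface proteins.

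The other genes of the pathway were counted from lists of 65 genes, of which 56 were tested between surface proteins and RANKL alone, and 5 rose and 4 fell. With heat-killed MJ2 against RANKL alone, 1 of 55 rose and 1 fell, and between surface proteins and heat-killed MJ2, 1 of 54 rose and 2 fell. Of all genes tested 17.5%, 4.26% and 10.1% were called in these comparisons, so that these counts were near or below the background. The median log2 fold changes were 0.15, -0.02 and 0.19 in the same order. Among partners of calcineurin, Akap5, the anchoring protein that holds calcineurin and protein kinase A together at the membrane, rose under both treatments. Akap5 was 3.09-fold higher with surface proteins (log2 fold change 1.63, 95% confidence interval 1.31 to 1.94, adjusted p = 8.64e-04 from limma) and 2.97-fold higher with heat-killed MJ2 (log2 fold change 1.57, 95% confidence interval 1.26 to 1.88, adjusted p = 0.00239). It had 2099, 2130 and 2311 adjusted reads with RANKL alone and at least 5992 in every treated library. The treatments differed by a log2 fold change of 0.06 (95% confidence interval -0.26 to 0.37). Cib1, a calcium-binding protein related to the calcineurin regulatory subunit, was 2.77-fold lower with surface proteins (log2 fold change -1.47, adjusted p = 0.00249 from limma). With heat-killed MJ2 against RANKL alone Cib1 passed on the adjusted p but not on the fold (log2 fold change -0.84, adjusted p = 0.0342 from limma).

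Among the calcium pumps and exchangers, 1 of 6 rose and 1 fell with surface proteins against RANKL alone, beside 10.2% and 7.32% of all genes. Atp2b1, a pump of the plasma membrane, was 2.11-fold higher (log2 fold change 1.08, adjusted p = 0.00447 from limma), and Atp2a3, a pump that refills the endoplasmic reticulum, was 2.55-fold lower (log2 fold change -1.35, adjusted p = 0.0113). With heat-killed MJ2 against RANKL alone Atp2a3 passed on the adjusted p but not on the fold (log2 fold change -0.75, adjusted p = 0.0412 from limma). Atp2b1 did not pass there (log2 fold change 0.31, adjusted p = 0.336 from limma). Between surface proteins and RANKL alone limma called 0 of 8 calmodulin and calmodulin kinase genes, 0 of 11 genes of calcium release and entry and 0 of 9 NFAT kinase and scaffold genes, beside 17.5% of all genes. At an unadjusted p under 0.05 the counts were 4, 5 and 3, together a share close to the 42.3% of all genes at this threshold. Among the genes of release and entry, 4 of 11 passed on the adjusted p without reaching the fold limit, as 29.1% of all genes passed on the adjusted p at any fold, and they are named here after their values were seen. The store-operated channel genes Orai2 and Orai3 had log2 fold changes of -0.88 (adjusted p = 0.0119 from limma) and -0.92 (adjusted p = 0.0114), while Stim2, the calcium sensor of the store, had 0.61 (adjusted p = 0.0451) and Mcu, the mitochondrial uniporter, had 0.95 (adjusted p = 0.00946).

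In the list of Src, Syk and Tec family kinases and adaptors, to which Lck is related, 3 of 13 rose and 1 fell between surface proteins and RANKL alone, beside 10.2% higher and 7.32% lower among all genes, and the median log2 fold change of the list was 0.58. Src, the kinase that osteoclasts need for their ruffled border, was 2.29-fold lower (log2 fold change -1.19, adjusted p = 0.0211 from limma), and it was also 2.11-fold lower than with heat-killed MJ2 (log2 fold change -1.08, adjusted p = 0.0167). Fyn, a close relative of Src, was 2.77-fold higher than with RANKL alone (log2 fold change 1.47, adjusted p = 0.00207 from limma) and 2.33-fold higher than with heat-killed MJ2 (log2 fold change 1.22, adjusted p = 0.0124). Lyn and Fgr, myeloid members of the family, had log2 fold changes of 1.12 (adjusted p = 0.00363) and 1.08 (adjusted p = 0.0349 from limma) against RANKL alone. With heat-killed MJ2 against RANKL alone Lyn passed on the adjusted p but not on the fold (log2 fold change 0.68, adjusted p = 0.0419 from limma). Fgr did not pass there (log2 fold change 0.90, adjusted p = 0.266 from limma). With heat-killed MJ2 against RANKL alone, limma called 0 of the 12 tested genes of this list, beside 4.26% of all genes, and 2 had an unadjusted p under 0.05, a share below the 22.6% of all genes.

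Of 9 known target genes of NFATc1, 8 were tested, and 8 of the 9 are also among the osteoclast markers summed above. With surface proteins 5 fell and 0 rose against RANKL alone, with a median log2 fold change of -1.83, and with heat-killed MJ2 2 fell, with a median of -0.62. Without Itgb3, which is low with surface proteins, 4 of 7 fell with surface proteins, with a median of -1.80. Among all genes 7.32% and 0.897% were called lower in these comparisons. Acp5, the gene of tartrate-resistant acid phosphatase, was 6.33-fold lower with surface proteins (log2 fold change -2.66, adjusted p = 0.00635 from limma) and 2.16-fold lower with heat-killed MJ2 (log2 fold change -1.11, adjusted p = 0.0291). Dcstamp, needed for the fusion of osteoclast precursors, was 5.03-fold lower with surface proteins (log2 fold change -2.33, adjusted p = 0.0123 from limma). Itgb3, a subunit of the vitronectin receptor, had 31.0, 22.7 and 43.5 adjusted reads with RANKL alone, 36.8, 62.0 and 27.5 with heat-killed MJ2 and 13.7, 7.62 and 4.53 with surface proteins. It was called lower with surface proteins than with RANKL alone and than with heat-killed MJ2 (adjusted p = 0.0186 and 0.0238 from limma), but 2 of the 3 libraries with surface proteins are under the filter of 10 adjusted reads, so that it entered through the groups in which it was higher. Atp6v0d2, a subunit of the proton pump, was lower than with RANKL alone under both treatments (log2 fold changes of -2.10 and -1.10, adjusted p = 0.00772 and 0.0435 from limma).

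**Figure D4:**
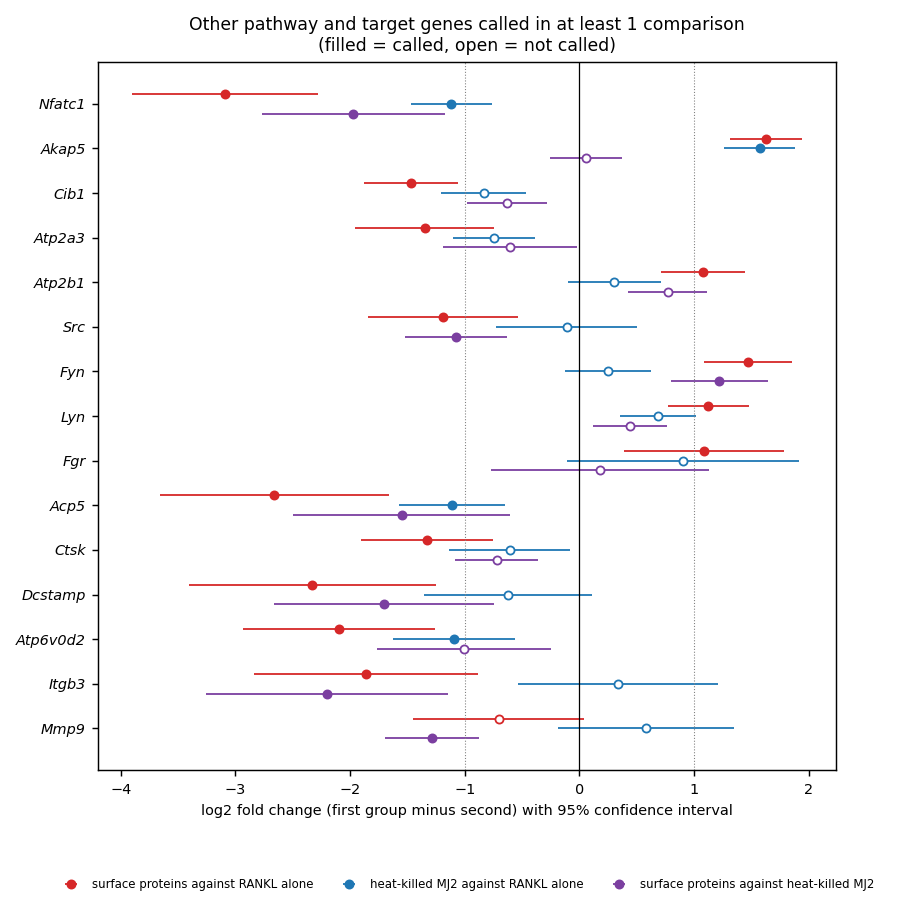
Log2 fold changes, with 95% confidence intervals from limma, of the other pathway genes and NFATc1 target genes that were called in at least 1 of the 3 comparisons, filled where called and open where not. Nfatc1 and the target genes lie to the left of 0 with surface proteins, Akap5 lies to the right under both treatments, and Src and Fyn lie on opposite sides.

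Genes with a pattern across the libraries most like that of a called gene were found by the root mean square difference of log2 values, each centred on its mean over the 9 libraries, among 11192 genes. For Rcan1 these were Pdgfb at 0.176, Gsn at 0.201 and Gamt at 0.204, against a median of 0.90 over all genes. For Itpr2 they were Iars at 0.115, Esd at 0.118 and Lyn at 0.121, the last of them on the kinase list above, against a median of 0.637. For Ppp3cc they were Tab3, Pld4 and Lrif1, between 0.185 and 0.188, and for Nfatc2 they were Firre, Bckdk and Magi2, between 0.15 and 0.169. For Lck, whose spread rests largely on the value under 1 read in replicate 2 of RANKL alone, the nearest was Pmel at 0.705 against a median of 1.81 over all genes. The medians for Ppp3cc and Nfatc2 were 0.684 and 0.644.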

How the data were processed

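RNA of RAW264.7 cells was sequenced in 9 libraries with a QuantSeq 3′ mRNA kit, and the authors deposited, per library, log2 values of 23282 gene rows in the form log2(adjusted reads + 1). Their processing notes name Bowtie2, bedtools and mm10, and the methods name quantile normalization between samples, but the sorted values differ between libraries, so that the deposited values are not fully quantile-normalized. The exact scaling of the values, the annotation, the use of strand and the handling of shared reads are not given in the sources used here. Groups were taken from the sample titles.

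Values were used as deposited. Each pair of groups was fitted on its own 6 libraries with limma 3.58.1 (R 4.3.3, lmFit and eBayes), and p-values were adjusted over all genes tested by the Benjamini-Hochberg method. The 10 genes and the pathway lists were chosen with earlier results of these data known. Pathway genes were named if called in at least 1 comparison, at most 4 a list with the largest change first, together with Nfatc1. Nfat5, Orai2, Orai3, Stim2 and Mcu fall outside this rule and were named after their values were seen. Markers of B cells (5 genes, at most 10.7 adjusted reads summed in a library) and fibroblasts (4 genes, at most 41.8) were also counted. The code was tested on simulated data, in which only genes of higher values were changed, by more than any change called among the 10 genes. That test therefore does not show how calls near the fold limit or at low values behave. Tables and plots were made with Python 3.11.15, pandas 2.3.3, numpy 2.4.6 and matplotlib 3.10.9. Gene positions are those of GENCODE M21 on GRCm38, the assembly also called mm10, and start site windows those of RefSeq on GRCm38.p6. Alternatives covered scaling, filters, the constant before the log, samples in the fit, a replicate block, moderation, thresholds and leaving out libraries. With totals from 5930926 to 6503682 adjusted reads, Lck and Nfatc2 rest on under 100 reads a library.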

Additional observations from a re-analysis of the deposited data

How the results depend on the processing

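Of 538 log2 fold changes of the 10 genes recomputed under the alternatives, 484 kept their direction and their side of the threshold, 29 lost a call, 12 gained one and 13 changed sign, the last all in genes that were not called. The number of genes called between surface proteins and RANKL alone was 1902, and it was 3163 with no fold limit, 1217 without the 3 libraries that list values under 1 read (an alternative chosen after seeing the data, which leaves 2 libraries a group), and between 1357 and 1822 with each library left out. Between heat-killed MJ2 and RANKL alone it was 461, and it was 267 with no filter, 289 with the replicate block, 799 at an unadjusted p under 0.05, 1 without those 3 libraries and between 81 and 347 with each library left out, lowest without replicate 1 of heat-killed MJ2. Between surface proteins and heat-killed MJ2 it was 1098, and it was 1949 with no fold limit, 0 without those 3 libraries (limma, fewer samples) and between 362 and 1176 with each library left out. Of the 10 genes, 4 were called between surface proteins and RANKL alone, 5 with the fit over all 9 libraries, the robust fit or the unadjusted p (Lck in addition), 2 without those 3 libraries (Itpr2 and Lck), and between 2 and 4 with each library left out, the lower count without replicate 2 or replicate 3 of surface proteins. Between surface proteins and heat-killed MJ2 2 were called, 1 with no filter, with the fit over all 9 libraries and with the replicate block (Ppp3cc each time), 4 with no fold limit, 0 without those 3 libraries and between 0 and 2 with each library left out. None was called between heat-killed MJ2 and RANKL alone under any alternative run.

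Without those 3 libraries the log2 fold change of Rcan1 between surface proteins and RANKL alone was -1.88 (adjusted p = 0.0584 from limma), that of Ppp3cc 0.80 and that of Nfatc2 -1.02. Some values that were not called changed sign. Between surface proteins and RANKL alone Ppp3ca went to -0.018 with quantile normalization, -0.020 with equal totals and -0.023 without those 3 libraries, and Ppp3cb to -0.016, -0.017 and, with each library left out, from -0.062 to 0.185. Between heat-killed MJ2 and RANKL alone Lck went from 1.65 to -0.081 without those 3 libraries, and with each library left out Ppp3cc ran from -0.292 to 0.014 and Nfatc3 from -0.127 to 0.038. Between surface proteins and heat-killed MJ2 Nfatc3 went to 0.030 without those 3 libraries and ran from -0.278 to 0.014. The cause of these changes was not tested. Replicate numbers are shared between groups. Deviations of same-numbered libraries from their group means correlated at 0.018 to 0.106 across 11193 genes, over 0.1 in 1 of 9 pairs. Those of differently numbered libraries correlated at -0.076 to 0.031. The same-numbered correlations were thus weak but all positive, and a small effect shared by replicate number cannot be dismissed. The labels do not state a pairing, and the main fits did not use one. With the replicate block Nfatc2 lost its call between surface proteins and RANKL alone (adjusted p = 0.0856 from limma) and Lck its call against heat-killed MJ2 (adjusted p = 0.0726). The constant before the log moved the log2 fold change of Lck against RANKL alone up to 4.00.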
